A study of Mus musculus with 2 samples.

Results

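Semaphorins, Slits and netrins are families of guidance cues, and plexins, neuropilins, Robos, Unc5 receptors, Dcc and neogenin are receptors that read them. Their genes were chosen by name from the authors' deposited table of distal against proximal limb-mesenchymal organoid regions, by a rule on gene symbols that uses no measured value. Of the 13916 protein-coding genes in that table, 42 matched, 26 of them ligands and 16 receptors. In GENCODE release M21, 50 gene names match the same rule, and the other 8 (Dcc, Ntn3, Ntn5, Ntng2, Plxnb3, Robo3, Robo4 and Unc5a) were not analysed here.

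The organoids were made from limb mesenchymal cells of Slc:ICR mouse embryos and grown for 48 h in medium with Fgf8b and Wnt3a, so every region shared that strain and both factors. In photo-isolation chemistry (PIC), light-caged primers are reverse transcribed inside a section and ultraviolet light frees the cDNA of a chosen area. Distal and proximal areas were lit on 10 µm sections of 5 organoids, which per the labels came from 4 cultures, taken on day 2. The 5 barcoded distal regions formed 1 library and the 5 barcoded proximal regions formed the other, so side and library cannot be told apart here. The p-values measure the spread between these regions, and regions that share an organoid or culture are not independent. In tissue pieces of this kind, fewer cells of a type and less RNA per cell cannot be told apart.

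Secreted class 3 semaphorins bind a neuropilin, which holds the ligand, together with a class A plexin, which carries the signal into the cell. Most membrane-bound semaphorins bind plexins directly. Slits are large secreted proteins read by Robo receptors, usually as a repellent. Netrins attract through Dcc or neogenin and repel through Unc5 receptors. In the limb bud these cues are best known for steering nerves, blood vessels and migrating cells through the mesenchyme, which makes many of the cues itself.

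Counts were thin. The size factors, which scale a region's counts for its depth, ran from 0.329 to 0.832 in distal and from 1.502 to 2.42 in proximal regions, so that proximal regions held 3.30 times the depth of distal ones in all. These correspond to about 46991 to 118978 counts in a distal and 214774 to 345649 counts in a proximal region. Regions are numbered below from 1, the deepest of its side, to 5, the shallowest. Among patterning genes listed to check the labelled sides, 5 of 8 distal ones were called towards distal and 0 the other way, and of 10 proximal ones 1 was called, towards proximal. These lists were made with earlier results of these data known, so the calls are no independent check of the sides. Meis1 and Meis2, on the proximal list, had only 1 and 2 counts, all proximal. All 16 limb mesenchyme markers were in the table, with 3 called towards distal and 2 towards proximal. The 3 were Hoxd13, Msx1 and Lhx2, which are on the distal list too. Presence there marks no cell type, since all 12 muscle lineage genes were in it too. Of all genes, 0.977% were called.

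Receptors of the Slit and class 3 semaphorin systems made up all the calls. Under the limit of 0.05 on the adjusted p of the authors' deposited table, 3 of the 42 genes were called, Plxna2, Robo1 and Nrp2, and all 3 were higher in proximal. Of all genes in it, 0.582% were called higher in proximal and 0.395% higher in distal, 0.977% in either direction. Among the 26 ligands the deposited DESeq2 test called 0, and at an unadjusted p under 0.05 it had 2, Slit2 and Sema3a. No gene of the families was called higher in distal by that test, where 2, Unc5c and Plxnb1, had an unadjusted p under 0.05. In all, 10 of the 42 genes had an unadjusted p under 0.05, 8 of them towards proximal and 2 towards distal. Of all genes, 6.07% had such a p, 3.51% towards proximal and 2.56% towards distal. The median log2 change (distal over proximal) was -0.43 for the receptors and -0.04 for the ligands, beside 0.07 for all genes. At a mean normalized count of at least 10 these medians were -0.44, -0.07 and 0.005. Among genes with a mean normalized count of at least 10, 8 of 9 receptors and 3 of 5 ligands had a negative log2 change, where 49.4% of all such genes did. At that mean 1.68% of genes were called higher in proximal and 12% had an unadjusted p under 0.05, beside 6 of the 14 guidance genes.

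**Figure D1:**
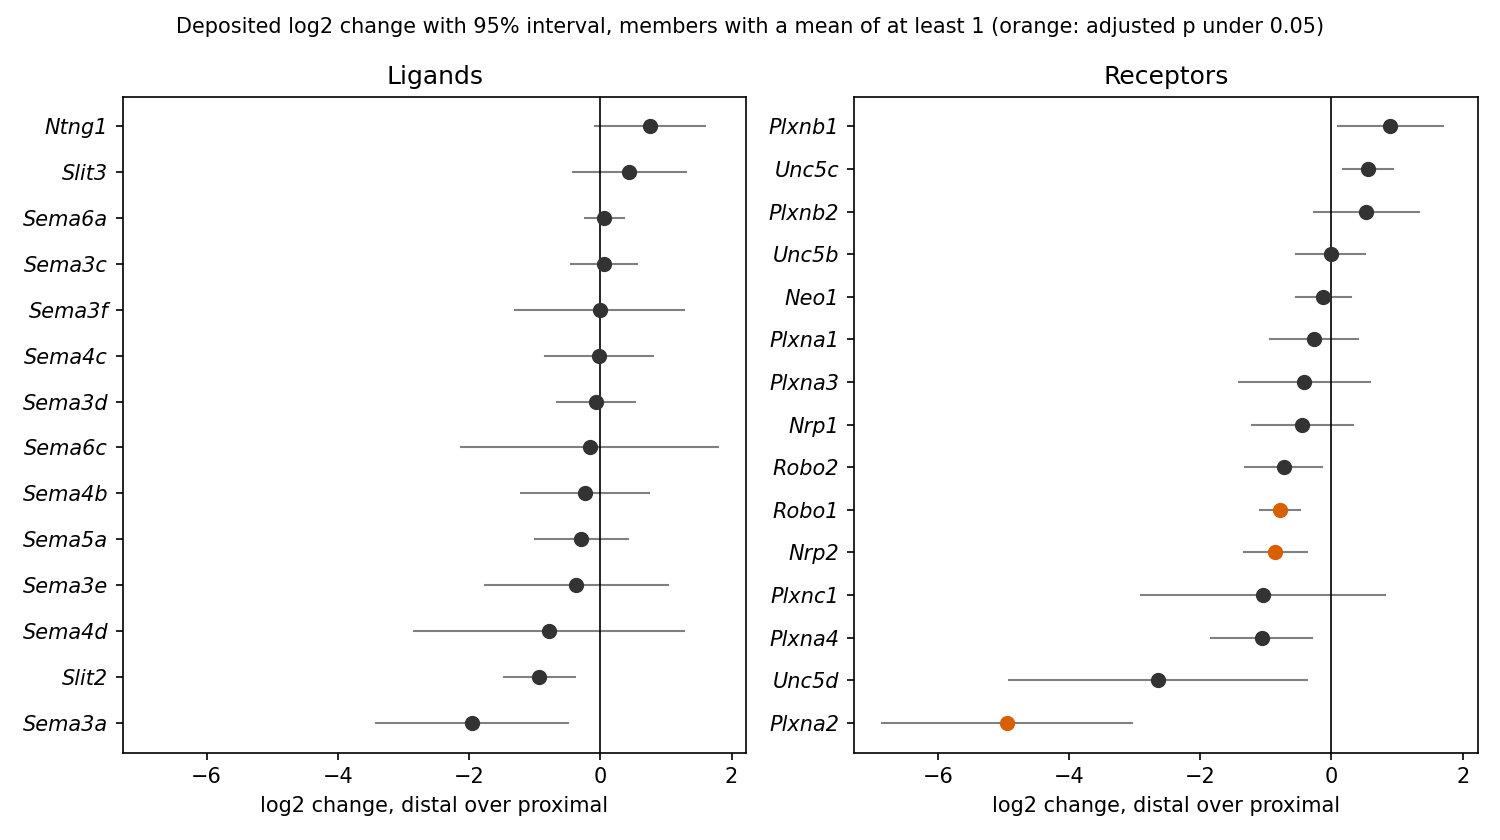
Deposited log2 change of distal over proximal (horizontal axis) with its 95% interval for the 14 ligands and 15 receptors with a mean normalized count of at least 1. Orange points have an adjusted p under 0.05; of the receptors 12 and of the ligands 10 lie below 0.

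The stretches before the starts of Nrp2, Robo1 and Slit2, the genes with the lowest p that have a printable window, are shown because their transcripts had the larger proximal levels. The sequences come from RefSeq on GRCm38.p6, run 5′ to 3′ on the gene's strand, and end at the start site or at the first annotated exon base. Capitals mark matches, on either strand, to a GC box (GGGCGG, bound by Sp factors), an E-box (CANNTG, bound by bHLH factors), a TATA box (TATAAA) or a TCF/LEF-type site (CTTTGAT, the Wnt effectors' site).
Nrp2, chr1:62703067-62703284, plus strand: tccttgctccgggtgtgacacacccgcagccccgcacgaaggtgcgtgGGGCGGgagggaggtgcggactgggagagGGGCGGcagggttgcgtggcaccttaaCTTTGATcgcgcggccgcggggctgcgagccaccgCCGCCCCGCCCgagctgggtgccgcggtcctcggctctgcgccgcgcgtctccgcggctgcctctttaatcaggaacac
Robo1, chr16:72662899-72663148, plus strand: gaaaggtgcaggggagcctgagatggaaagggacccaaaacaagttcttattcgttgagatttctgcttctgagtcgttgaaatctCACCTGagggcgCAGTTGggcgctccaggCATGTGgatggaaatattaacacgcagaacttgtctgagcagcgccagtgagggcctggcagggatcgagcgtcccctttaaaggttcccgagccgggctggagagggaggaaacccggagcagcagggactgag
Slit2, chr5:47982905-47983137, plus strand: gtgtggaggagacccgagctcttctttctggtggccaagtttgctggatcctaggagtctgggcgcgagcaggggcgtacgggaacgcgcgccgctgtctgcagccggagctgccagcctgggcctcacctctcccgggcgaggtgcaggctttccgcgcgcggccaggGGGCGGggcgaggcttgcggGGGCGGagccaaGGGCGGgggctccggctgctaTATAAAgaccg

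The windows differed in make-up. Over the 250 bases before the start, Nrp2 held 5 GC boxes with 32 CpG, Slit2 held 3 GC boxes and 1 TATA box with 25 CpG, and Robo1 held no GC box but 3 E-boxes with 11 CpG. The Robo1 start lies within the gene's annotated span, downstream of the first base of its longest model. The Plxna2 window, with 2 GC boxes and 18 CpG, lies in an annotated Plxna2 exon and is not printed. Of 14028 such windows of genes in the table, 55.3% held a GC box, 58.3% an E-box, 7.09% the TATA box and 2.25% the TCF/LEF-type letters, and the median window held 15 CpG. A match describes the letters and is no evidence of binding.

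Plxna2 encodes plexin-A2, a signalling receptor for class 3 and class 6 semaphorins (ENSMUSG00000026640, chr1:194618218-194816869 on GRCm38, plus strand). Its counts could be recovered for each region from the deposited mean, log2 change and standard error. Not 1 count fell in the 5 distal regions, and the proximal regions held 27, 24, 20, 17 and 11 counts. Divided by size factors, the proximal values were 11.2, 10.9, 10.2, 10.8 and 7.32. All proximal regions stood above all distal ones, and 4 of the 5 proximal values lay close together with the shallowest region lower. The share of all genes whose sides do not overlap was not computed. The proximal mean was 10.1 ± 1.58 (SD, n = 5 regions). A count of 0 over the distal regions allows a normalized mean of up to 1.02 there (3 counts over the summed size factors). The proximal mean was 9.84-fold above that, a bound that covers counting error in distal only. Its log2 change was -4.95 (standard error 0.97) and its adjusted p 9.57e-05, both from the authors' deposited table. The fitted change of a gene at 0 on 1 side depends on the fit and is no bound. Leaving out each region in turn kept the bound between 7.05-fold and 10.5-fold.

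The other class A plexins had negative log2 changes and were not called. Plxna4, also a partner of neuropilins, had side means of 9.41 in distal and 19.7 in proximal, computed from the deposited mean and log2 change. The authors' deposited table lists -1.06 for its log2 change (standard error 0.39), p = 0.00644 and, adjusted, p = 0.312. Plxna1 and Plxna3 had log2 changes of -0.27 and -0.41, with 95% intervals from -0.94 to 0.41 and from -1.40 to 0.58. Plxna3 was counted in each region, with 4, 2, 5, 4 and 1 distal and 20, 10, 22, 9 and 10 proximal counts, and its normalized values overlapped between the sides. The absence of counts at Plxna2 was thus not shared by its paralogs, each of which had distal counts. The difference between the paralogs' changes was not tested.

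**Figure D2:**
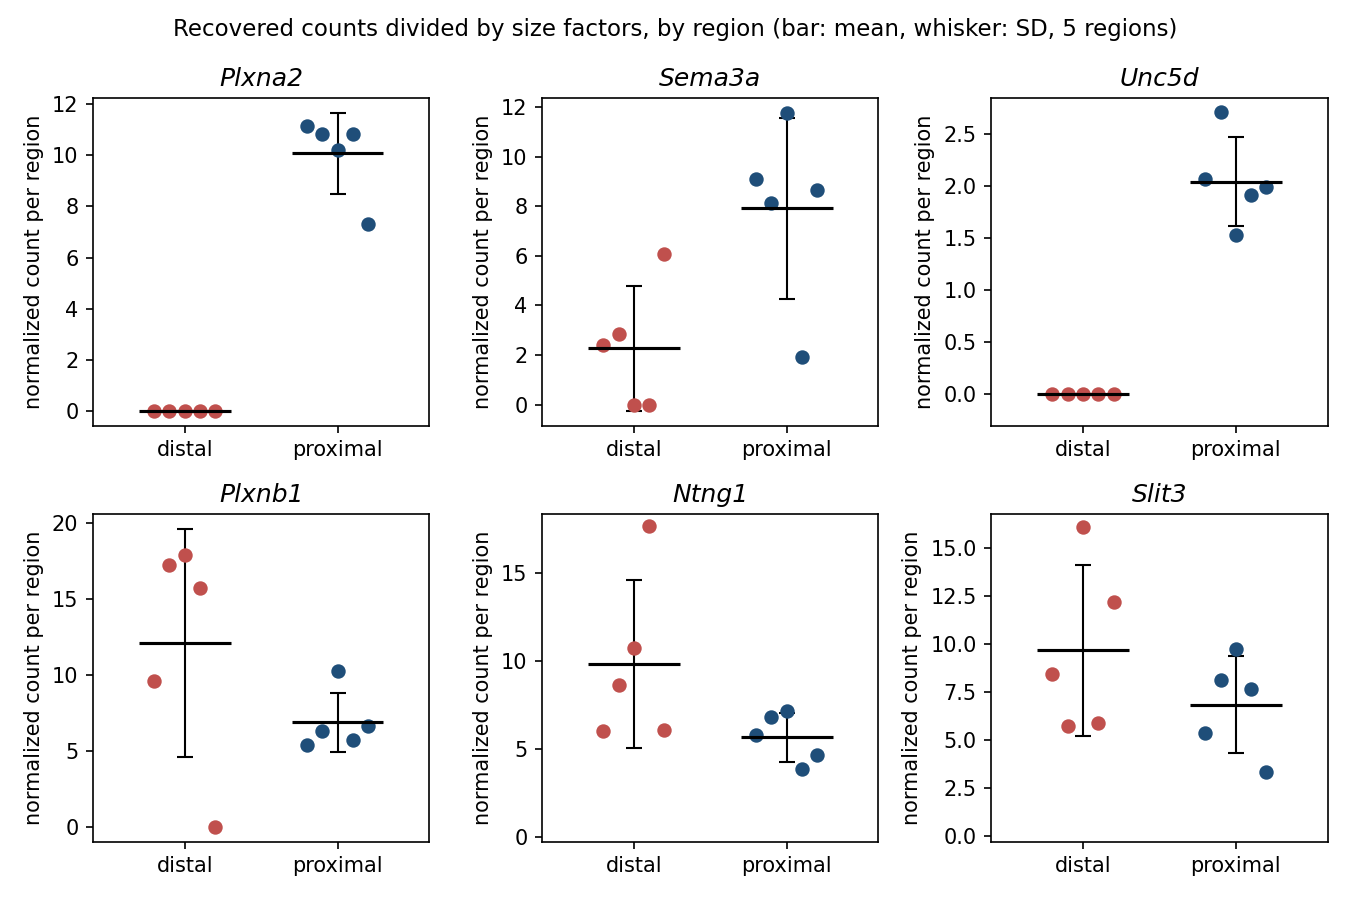
Normalized count (vertical axis) of 6 genes in each of the 5 distal and 5 proximal regions, with the mean (bar) and SD (whisker). Plxna2 and Unc5d have no distal count, Sema3a overlaps between the sides in 1 proximal region, and Plxnb1, Ntng1 and Slit3 have higher distal means with overlapping regions.

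Neuropilins hold class 3 semaphorins on the cell surface. Nrp2 (ENSMUSG00000025969, chr1:62703285-62818695, plus strand), the better known receptor for Sema3f and Sema3c, had computed side means of 23.0 in distal and 41.6 in proximal. This is 1.81-fold higher in proximal (95% interval 1.30 to 2.53), and the authors' deposited table has 0.0485 as the adjusted p, just inside the limit. Nrp1, the main receptor for Sema3a, had side means of 9.65 and 13.1, and, from the authors' deposited table, a log2 change of -0.44 (standard error 0.39) and p = 0.991 after adjustment. The interval for Nrp1, from -1.22 to 0.33, contains the Nrp2 value, and the difference between the neuropilins was not tested.

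Sema3a, the secreted repellent that is the classical ligand of Nrp1 with plexin-A4, had the most negative log2 change of the ligands in the authors' deposited table. It had 2, 2, 0, 0 and 2 counts in the distal regions and 22, 18, 23, 3 and 13 in the proximal ones. The normalized values were 2.40, 2.86, 0, 0 and 6.09 in distal and 9.10, 8.14, 11.8, 1.91 and 8.65 in proximal. Of the proximal regions 4 stood above every distal region, and region 4 lay within the distal range. The means were 2.27 ± 2.51 and 7.91 ± 3.63 (SD, n = 5 regions each). The authors' deposited table lists -1.95 for the log2 change (standard error 0.75), p = 0.00899 and, adjusted, p = 0.380. Summed counts over summed size factors gave 0.250 of the proximal level in distal, with an exact Clopper-Pearson interval from 0.0892 to 0.570 that covers counting error only. The log2 ratio of the side means was -1.80, and without distal region 5, the shallowest, it was -2.59.

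Neighbouring genes of the same class had smaller log2 changes than Sema3a, a difference that was not tested. Sema3d, Sema3a, Sema3e and Sema3c lie in that order on chromosome 5, with 536 kb between Sema3d and Sema3a, 423 kb between Sema3a and Sema3e and 3.32 Mb from Sema3e to Sema3c. Sema3d, a repellent for vessels and neural crest cells, had side means of 19.0 in distal and 19.9 in proximal, and Sema3c, known from heart outflow tract growth, 29.7 and 28.5. Their 95% intervals on the log2 scale ran from -0.67 to 0.53 and from -0.44 to 0.56. Centring on the all-gene median, 0.067, turned the sign of Sema3c. That median includes thinly counted genes. The change of Sema3c, 0.061, lies above 0.005, the median for better counted genes (mean 10 or more). Sema3e, the ligand of plexin-D1, had 2, 2, 3, 2 and 0 distal counts against 5, 8, 17, 5 and 3 proximal ones, and the sides overlapped. Sema3f had 10 counts in distal and 34 in proximal, and normalized means of 3.45 ± 3.17 and 3.46 ± 1.22 (SD, n = 5 regions each). Its interval of -1.30 to 1.28 leaves a change of 2-fold either way within it. Sema3b had 2 distal and 10 proximal counts, a depth-scaled ratio of 0.659 with an exact interval from 0.0702 to 3.09, and Sema3g had 0 and 1.

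Membrane-bound semaphorins gave no unadjusted p under 0.05 on either side. Sema6a, a transmembrane ligand of plexin-A2 and plexin-A4 and the most heavily counted gene of the set, had a mean of 115 and side means of 117 in distal and 113 in proximal. From the authors' deposited table its log2 change was 0.06, within -0.23 to 0.36. Centring on all genes turned the sign of Sema6a, but its change lies above 0.005, the median for better counted genes. Plxna2 had no distal count on the side where its ligand Sema6a had a mean of 117. Sema5a, which binds plexins through a domain next to thrombospondin repeats, had side means of 13.5 and 16.5, and Sema4c, a ligand of plexin-B2, 9.58 and 9.71. Sema4b had 17 distal and 66 proximal counts, a ratio of 0.849 with an exact interval from 0.467 to 1.46 for counting error. Sema4d, the ligand of plexin-B1, had 3 and 18 counts, and Sema6c 4 and 15. Scaled for depth, their ratios were 0.549 (exact interval 0.104 to 1.88) and 0.879 (0.212 to 2.76). Sema4a had 3 and 5, Sema4g 1 and 13 and Sema6d 1 and 11 counts. At Sema4g the distal level was 0.254 of the proximal one, with an exact interval from 0.00597 to 1.69, so this depth showed no difference.

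Class B plexins, receptors of class 4 semaphorins, had positive log2 changes. Plxnb1 had 8, 12, 10, 8 and 0 distal counts and 13, 14, 20, 9 and 10 proximal ones. The normalized values were 9.61, 17.2, 17.9, 15.7 and 0 in distal and 5.38, 6.33, 10.2, 5.74 and 6.66 in proximal. Of the distal regions 3 stood above every proximal region, while the shallowest distal region had no count. The authors' deposited table lists 0.90 for the log2 change (standard error 0.41), p = 0.0273 and, adjusted, p = 0.698. Plxnb2 had 34 distal and 78 proximal counts and normalized means of 11.7 ± 5.70 and 8.12 ± 2.97 (SD, n = 5 regions each), with a log2 change of 0.53 and an interval from -0.27 to 1.34. Plxnc1, the receptor of Sema7a, had 4 distal and 28 proximal counts, while Sema7a itself had 0 and 6. Plxnd1, which is known from blood vessels, had 1 proximal count in all.

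**Figure D3:**
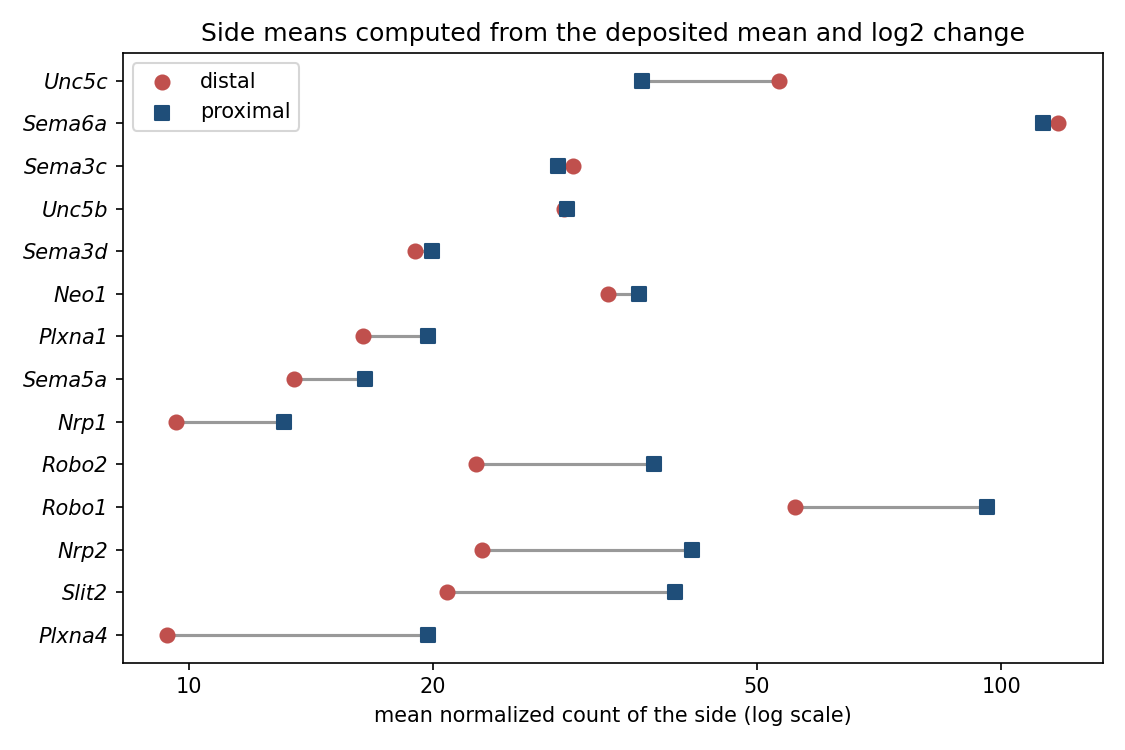
Mean normalized count of the distal (circles) and proximal (squares) regions on a log axis for the 14 genes with a mean of at least 10, computed from the deposited mean and log2 change and ordered by that change. Unc5c has the widest gap towards distal and Plxna4, Slit2, Nrp2, Robo1 and Robo2 the widest towards proximal; levels of different genes are not scaled to length.

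Robo1 and Robo2 encode Slit receptors. Robo1 (ENSMUSG00000022883, chr16:72308306-73046095, plus strand) had computed side means of 55.8 in distal and 96.0 in proximal, from about 164 and 926 counts. It was 1.72-fold higher in proximal (95% interval 1.39 to 2.12), with 0.000124 for the adjusted p from the authors' deposited table. Robo2, on the other strand of the same chromosome across a gap of 846 kb, had side means of 22.6 and 37.4. The authors' deposited table lists -0.73 for its log2 change (standard error 0.30) beside -0.78 for Robo1, p = 0.0150 and, adjusted, p = 0.507. Of these neighbouring receptors 1 was called, and the difference between them was not tested.

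Slit2, a ligand of both receptors (ENSMUSG00000031558, chr5:47983138-48307733, plus strand), had side means of 20.8 in distal and 39.7 in proximal, from about 60.9 and 383 counts. The ratio of proximal to distal was 1.91, with an interval from 1.31 to 2.77. The adjusted p of the authors' deposited table, 0.0697, missed the limit, and over 3 other ways of adjusting it ran from 0.0223 to 0.0661. Slit3 had 7, 4, 9, 3 and 4 distal and 13, 18, 19, 12 and 5 proximal counts. The sides overlapped, with normalized means of 9.66 ± 4.45 and 6.84 ± 2.50 (SD, n = 5 regions each). From the authors' deposited table its log2 change was 0.44 (interval -0.42 to 1.30), on the other side of 0 from Slit2, whose interval ended at -0.39. The difference between Slit2 and Slit3 was not tested. Slit1 had 1 proximal count in all.

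Of the 3 Unc5 receptors, which turn netrin into a repellent, 0 were called by the deposited DESeq2 test, 2 had an unadjusted p under 0.05, in opposite directions, and differences between them were not tested. Unc5c (ENSMUSG00000059921, chr3:141465216-141834924, plus strand) had the lowest p towards distal of all genes in the set, with side means of 53.2 in distal and 36.2 in proximal. The ratio of distal to proximal was 1.47 (interval 1.13 to 1.91), with p = 0.00375 and, adjusted, p = 0.222 from the authors' deposited table. Unc5b had side means of 28.9 and 29.2, with a log2 interval from -0.54 to 0.52. Unc5d had no distal count and 5, 6, 3, 3 and 3 proximal counts, which are 2.07, 2.71, 1.53, 1.91 and 2.00 when normalized. Each proximal region thus lay above all distal regions, on 20 counts in all. With distal at 0, a count of 1 in each proximal region is enough for this. The share of all genes whose sides do not overlap was not computed. With distal set at 3 counts, the proximal mean of Unc5d was 2.00-fold above distal, a value that covers counting error in distal only. Leaving out each region in turn moved that value between 1.43-fold and 2.12-fold. The authors' deposited table lists p = 0.629 after adjustment for Unc5d.

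Netrin ligands were close to absent from the counts. Ntn1, the founding netrin, had 0 distal counts and 0, 1, 2, 1 and 1 proximal ones, and Ntn4, a netrin of basement membranes, had 0 and 2. For Ntn1 the 3 counts that a distal 0 allows correspond to more than its proximal level, so no direction was detectable. Neo1 encodes neogenin, which binds netrins and repulsive guidance molecules, and had side means of 32.9 and 35.8 with a log2 interval from -0.54 to 0.29. Ntng1 encodes netrin-G1, a membrane-anchored relative that binds no classical netrin receptor. It had 5, 6, 6, 9 and 2 distal counts and 14, 15, 14, 6 and 7 proximal ones. Its normalized means were 9.81 ± 4.79 and 5.64 ± 1.40 (SD, n = 5 regions each), with overlapping regions. The authors' deposited table lists 0.76 for the log2 change, p = 0.0768 and, adjusted, p = 0.991.

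At the thin end, Plxnd1, Sema3g, Sema4f, Sema6b and Slit1 had a single count each, always in a proximal region, and Ntn4 and Sema5b had 2 and 3 counts, all proximal. The authors' deposited table lists the 5 genes with 1 count at a log2 change of 1.19, towards distal and against the side of their count, so the sign of these entries carries no direction. No fold is given for these 7 genes, which had at most 3 counts on either side. Among the 42 genes, 13 had a mean under 1, 12 of them ligands.

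**Figure D4:**
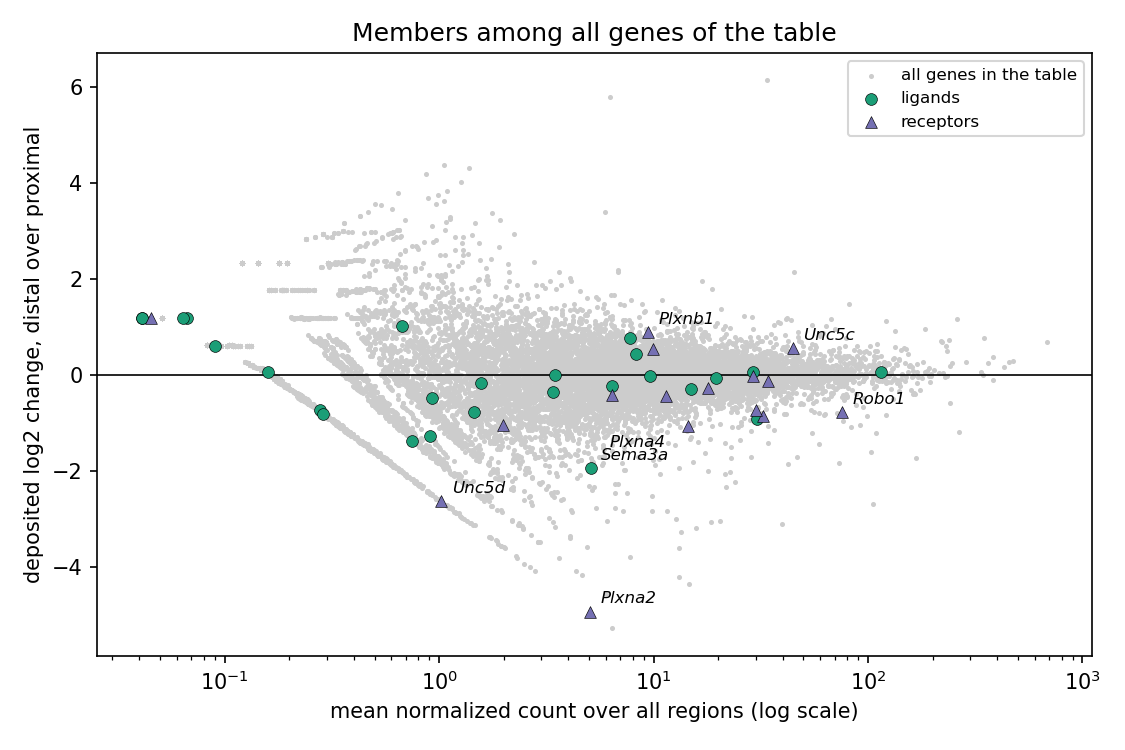
Mean normalized count over all regions (log axis) against the deposited log2 change for all 13916 genes (grey), the 26 ligands (circles) and the 16 receptors (triangles). The 5 genes with 1 count sit at 1.19 at the left edge, and Plxna2 lies at -4.95.

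Among listed partners and effectors, 2 genes were called. For all genes the shares were 0.977% called and 6.07% with an unadjusted p under 0.05, or 12% at a mean of at least 10. Of 35 listed genes that act with semaphorins and plexins, 0 were called by the deposited DESeq2 test. An unadjusted p under 0.05 was found for 4 (11.4%), 3 towards distal and 1 towards proximal. The latter was Mras, a Ras-related GTPase gene, with a log2 change of -1.20 from the authors' deposited table. Among the former, Dpysl3 and Crmp1, which encode collapsin response mediator proteins that act below Sema3a, had log2 changes of 1.02 and 1.87, with 0.0757 and 0.378 for the adjusted p from the authors' deposited table. Crmp1 had 14 distal and 12 proximal counts. Cfl1, the actin-severing protein cofilin, had 0.37 and 0.144 for the same quantities. Of 25 Slit and Robo partners 1 was called, the small GTPase gene Cdc42, higher in distal with a log2 change of 0.50 (adjusted p 0.0190, from the authors' deposited table). Srgap3, a Rac-inactivating Robo partner, and Prkca, a protein kinase C, had log2 changes of 0.92 and -0.56 and were not called. Of 26 netrin partners 1 was called, Flrt2, which encodes a membrane ligand of Unc5 receptors, Unc5d above all. Its side means were 8.40 in distal and 39.5 in proximal, and the authors' deposited table lists -2.24 for the log2 change, with 2.62e-08 for the adjusted p. Unc5d, its receptor, had no distal count and was not called. Fyn, a Src-family kinase, and Siah1a, a ubiquitin ligase, had log2 changes of -0.80 and 0.56 and were not called. The median log2 change of the 3 lists was 0.15, 0.20 and 0.17, beside 0.07 for all genes. Among their members that reach a mean of 10 it was 0.10, -0.09 and -0.09, beside 0.005 for all genes at that mean. The sign thus turned for the Slit and Robo and the netrin partners.

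Of 12 muscle lineage genes, 5 were called higher in proximal, beside 0.582% of all genes, and 0 the other way. Their part in the receptor and ligand differences was not tested. Over the 9 whose counts were recovered there were 11 distal and 350 proximal counts, with summed normalized levels from 0 to 11.5 in distal and from 17.9 to 44.7 in proximal regions. Pax3, Pax7, Myf5 and Des were at 0 in distal. Proximal region 4, where Sema3a was lowest, had the lowest proximal sums of muscle genes, 17.9, and of nerve and Schwann cell genes, 5.74. It was also lowest for 3 recovered limb mesenchyme genes of 16, at 3.83, and 4 recovered proximal patterning genes of 10, at 3.19. In the other lists with recovered counts it was not lowest. The blood cell genes had 5.11 there, against a lowest sum of 1.02, and the semaphorin and plexin partners their highest proximal sum, 58.1. Of the 14 nerve and Schwann cell genes, 13 were in the table, with 18 distal and 107 proximal counts and summed levels from 1.96 to 12.2 in distal and from 5.74 to 16.1 in proximal. Sox10, S100b, Isl1, Nefl and Prph were at 0 in distal, Tubb3 and Elavl3 at 0 in proximal. Of 12 endothelial genes 7 were in the table, and the 6 recovered had 8 distal and 13 proximal counts, with Kdr and Esam at 0 in distal and Emcn at 0 in proximal. Erg, the seventh and by far the most counted, had computed side means of 24.2 in distal and 32.8 in proximal and was not called. Their summed levels ran from 0 to 7.16 in distal and from 0.414 to 2.71 in proximal regions. The 4 surface ectoderm genes in the table had 2 distal and 9 proximal counts and the 5 blood cell genes 6 and 41. Scaled for depth, the ectoderm sums ran from 0 to 1.96 in distal and from 0.511 to 1.36 in proximal regions. The blood cell sums ran from 0 to 5.88 and from 1.02 to 6.20.

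The guidance genes also span long stretches of the genome. The median span of the 14 best counted ones was 184 kb, against 31.7 kb for all genes with a like minimum mean of 10. Of the 939 such genes with the longest spans, 3.09% were called higher in proximal and the median log2 change was -0.04, and the 12 guidance genes in it had a median of -0.37. Of the 940 with the shortest spans, 1.70% were called higher in proximal and the median was 0.05. The part of gene span in the differences was not tested.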

How the data were processed

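The authors deposited 1 table with a line per protein-coding gene for distal against proximal; the 2 libraries hold 5 barcoded regions each. Per the file headers it is a DESeq2 results table: the mean is a signal in normalized counts averaged by the authors over all regions, the log2 change and its standard error are the authors' fit, the score is their ratio, and the p-value and adjusted p-value are the authors' deposited ones. Builds mm10 and GRCm38 are named in the submitters' processing notes; the aligner and counter are not given in the sources used here. No test was refitted; a gene is called where the authors' adjusted p is under 0.05. The members and lists were chosen with earlier results of these data known.

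Size factors were read from 10 steps that at least 20 genes share among the lowest means, refined on 4623 of 4624 genes with a mean up to 1.2 that had a single matching set of counts. Genes with a single count share 1 fitted log2 change per side, and the side with the higher one was taken as distal; with these sides the recomputed log2 change of those genes was off by at most 2.38e-05. For genes with a mean under 10 (list genes under 6), whole counts per region were searched that give the deposited mean to within 7e-10 and, in a negative binomial fit with fitted means of at least 0.5 at the dispersion that matches the standard error, the log2 change to within 2e-05 (2e-07 above a mean of 6). Counts were accepted where 1 set remained, for 86 of 86 genes up to a mean of 3 and 26 of 28 above it; Sema4c and Tbx4 were not resolved. The search returned the true counts of 24 of 24 genes simulated with means up to 6; means of 6 to 10 were not simulated. For the other genes, side means were computed from the mean and log2 change. On 9 members with known counts these were off by a median of 1.01% in distal (largest 7.79%) and 1.70% in proximal (largest 3.60%). Intervals of 95% are normal intervals from the deposited standard error, or exact for counts. The exact intervals and the floors (3 counts) cover counting error only, while the normal intervals also carry the fitted spread between regions. Named in full were genes with a p under 0.05, the one with the highest mean of each subfamily and the ligands or receptors of called genes, others by count; of each partner list, called genes and, where these were under 3, the 3 with the lowest p. With BLAST 2.17.0, 0 of 42 members had a near-identical copy (200 of the last 300 transcript bases at 95% identity) in GENCODE M21. Exons of Plxnb1, Plxna1, Plxna4, Unc5c and Sema4c overlap a transcript on the other strand, and those of Nrp1, Plxnc1 and Sema4a one on the same strand, so their reads may be mixed. Python 3.11.15, numpy 2.4.6 and scipy 1.17.1 were used.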

Additional observations from a re-analysis of the deposited data

Results flagged for a closer look

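Among 24 groups of 5 regions with at least 10 counts, 3 had a region set apart from the other 4. Its gap to the nearest was over 0.71 of the range. This limit flags about 1 in 20 groups of normal values with equal spread. Its rate for counts at unequal depth was not computed. Plxna2 was lowest in proximal region 5, at a normalized count of 7.32 from 11 counts. Plxnb1 was highest among proximal regions in region 3, at 10.2 from 20 counts, and Sema3e was highest there too, at 8.69 from 17 counts. The causes were not tested.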

How the results depend on the processing

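The number of genes called was 3, all higher in proximal, and stayed between 2 and 4 under 6 of 7 alternatives. Adding a log2 change of at least 1 left 1, Plxna2. Slit2 joined at an adjusted p under 0.1, with Benjamini-Hochberg values over genes whose mean reached 1 or 10, and with centring; Nrp2 left at 0.01. Plxna2, with a mean of 5.04, is not among the genes that reach 10. Of the 10 genes with an unadjusted p under 0.05, 6 have a mean of at least 10, where 12% of all genes have such a p. No gene was called higher in distal under any of the 7. Centring turned the sign of Sema3c, to -0.0064, and of Sema6a, to -0.0052. The centre, 0.067, is the median over all genes, including thinly counted ones whose sign can carry no direction. Sema3c (0.061) and Sema6a (0.062) both lie above 0.005, the median where the mean count reaches 10. Centring on that lower median was not run, so these sign changes depend on the centre chosen. The receptors' median log2 change ran from -0.43 to -0.49 and the ligands' from -0.04 to -0.12; the means were -0.63 and -0.07. Leaving out each region of 18 genes with recovered counts (leaving aside the 7 with at most 3 counts on either side, Ntn1 and Sema7a) gave 178 log2 ratios (none where no distal count was left). Of these, 175 moved by less than the deposited standard error and 3 moved further: Sema3a (to -2.59) and Sema3b (to -1.73) without distal region 5, and Sema4d (to -1.89) without distal region 3. The sign turned in 13, all of Sema3b, Sema3e, Sema3f, Sema4b and Sema6c, which were not called. For Plxna2 and Unc5d the ratios were bounds, with distal set at 3 counts. The standard error is wide for thinly counted genes, 1.46 at Sema4a, so a move within it shows little there. No paired analysis was possible because regions carry no replicate label in the deposited values. Other count tests and size factors were not run, since they need the counts of all genes and those of well counted genes were not recovered. Depth limits the distal side most: 3 counts there are a normalized mean of 1.02, against 0.311 in proximal.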
